A study of Homo sapiens with 10 samples.

Results

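The genes described here are 32 members of the unfolded protein response and the integrated stress response, out of 60898 genes in the deposited count table. A member is the gene whose symbol matched a fixed list, and each symbol stood once in the table. For 12 of the 32 members, the row name begins with a merged locus identifier. What those loci cover beyond the named gene was not examined. Of the members, 15 form the ATF4 arm, 14 form the endoplasmic reticulum (ER) chaperone arm and 3 are the ER stress sensors. All 32 passed the filter on low counts.

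RNA was sequenced from cells labelled as neural progenitors (NPCs), derived from the established human embryonic stem cell line H1, in 5 groups of 2 libraries. KO1 and KO2 are 2 lines in which STAMBP, a deubiquitinase of endosomal sorting, was knocked out, and together they give 4 knockout libraries. KO+STAMBP is knockout cells given STAMBP, KO+CFLAR is knockout cells given CFLAR, an inhibitor of caspase-8 activation, and WT is unedited cells. Which of the 2 knockout lines was given a construct is not stated in the sources used here. Whether the 2 libraries within a group are separate cultures is also not stated, so every p-value below reflects library-to-library spread that could be technical.

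The unfolded protein response is the signalling system by which a cell with misfolded protein in the ER raises its folding capacity. It has 3 sensors in the ER membrane: IRE1, encoded by ERN1, splices the mRNA of the transcription factor XBP1; ATF6 is cleaved into a transcription factor; and PERK, encoded by EIF2AK3, phosphorylates the translation factor eIF2. Phosphorylated eIF2 lowers general translation but favours translation of ATF4, and because kinases outside the ER act on eIF2 too, this branch is also the core of the integrated stress response. XBP1 and ATF6 mainly drive ER chaperone and degradation genes, whereas ATF4 mainly drives amino acid metabolism, stress transcription factors and feedback genes. Gene counts measure RNA, and they measure neither eIF2 phosphorylation, nor ATF4 protein, nor the spliced share of XBP1.

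Because the 2 arms are known for different promoter elements, promoters of the members were searched in RefSeq (GRCh38.p14), from 250 bases before to 50 bases after each annotated start, on both strands. A promoter was found for 31 of the 32 members, all but SHMT2. The C/EBP-ATF element to which ATF4 dimers bind was searched as TGATGNAA, and it stood in 4 of 14 ATF4 arm genes and 1 of 14 ER chaperone arm genes, against 4.46% of all 27305 genes with promoters in the table. The ER stress element of ATF6 was searched as CCAAT and CCACG with 9 bases of any kind between them, and it stood in 6 of 14 ER chaperone arm genes (HSPA5, HSP90B1, XBP1, PDIA6, CALR and CRELD2) and 0 of 14 ATF4 arm genes, against 0.0916% of all genes. The ER stress element II, searched as ATTGG and CCACG with 1 base of any kind between them, stood in HERPUD1 and SDF2L1, against 0.0696% of all genes. The unfolded protein response element, searched as TGACGTGG, was in no member and in 0.927% of all genes. A match is a description of letters and does not show a bound site. No motif match overlapped another in the sequences printed here.

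The C/EBP-ATF element in the 4 ATF4 arm genes is shown first, 5′ to 3′ on the strand of each gene, with the fixed letters of the element in capitals. In CHAC1 the element lies on the opposite strand, so its capitals are the reverse complement.
ATF3 (chr1:212565201-212565238, plus strand): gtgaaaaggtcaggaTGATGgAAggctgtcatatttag
CHAC1 (chr15:40953247-40953284, plus strand): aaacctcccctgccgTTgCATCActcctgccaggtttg
ASNS (chr7:97872454-97872491, minus strand): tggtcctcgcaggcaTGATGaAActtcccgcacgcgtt
CEBPG (chr19:33374056-33374093, plus strand): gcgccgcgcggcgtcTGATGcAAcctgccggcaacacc

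Matches to the ER stress element are shown for the ER chaperone arm genes on which the comparisons below turn. In CALR and CRELD2 the element again lies on the opposite strand.
HSPA5 (chr9:125241376-125241424, minus strand): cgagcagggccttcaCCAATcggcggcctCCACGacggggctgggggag
XBP1 (chr22:28800588-28800636, minus strand): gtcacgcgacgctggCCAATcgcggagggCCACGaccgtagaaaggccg
PDIA6 (chr2:10812838-10812886, minus strand): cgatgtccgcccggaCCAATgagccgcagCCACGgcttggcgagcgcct
CALR (chr19:12938369-12938417, plus strand): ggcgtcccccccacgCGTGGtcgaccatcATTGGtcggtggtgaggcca
CRELD2 (chr22:49918539-49918587, plus strand): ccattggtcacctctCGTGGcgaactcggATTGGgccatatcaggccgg

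The ER stress element II of the other 2 genes is shown because HERPUD1 was the only member with elements of both kinds. Its first capitals are the C/EBP-ATF element on the opposite strand, and its second are the ER stress element II; in SDF2L1 the element lies on the opposite strand.
HERPUD1 (chr16:56931951-56932050, plus strand): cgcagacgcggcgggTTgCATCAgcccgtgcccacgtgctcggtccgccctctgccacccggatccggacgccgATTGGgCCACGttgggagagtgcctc
SDF2L1 (chr22:21642099-21642139, plus strand): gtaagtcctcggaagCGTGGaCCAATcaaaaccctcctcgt

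The libraries held 16495116 to 20832700 counts. STAMBP was at 16.9 to 19.5 counts per 1000000 counts (CPM, on TMM-scaled totals) in the knockout libraries, 40.4 and 45.3 CPM in KO+STAMBP, 42.9 and 40.0 CPM in the KO+CFLAR-labelled libraries, and 43.4 and 47.2 CPM in WT. CFLAR was at 247 to 264 CPM in the knockout libraries, but at 31.3 and 29.4 CPM in the KO+CFLAR-labelled libraries, 32.1 and 32.1 CPM in KO+STAMBP, and 34.2 and 30.4 CPM in WT. The KO+CFLAR-labelled libraries therefore go against their label in both genes, and the counts below were also taken without them. The cell type marker lists moved as well: 10 of 10 epithelium markers were called higher in the knockout than in WT, and they summed to 8302 to 8771 CPM in the knockout libraries, 61.0 to 63.1 CPM in KO+STAMBP, 53.5 to 55.7 CPM in the KO+CFLAR-labelled libraries, and 31.7 to 33.5 CPM in WT, where 1 of the 10 was at 0 in each library. Of the neuron markers, 10 of 10 were called lower in the knockout than in WT, and they summed to 824 to 847 CPM in the knockout libraries, 6250 to 6302 CPM in KO+STAMBP, 6218 to 6295 CPM in the KO+CFLAR-labelled libraries, and 4289 to 4344 CPM in WT. Of 10 neural progenitor markers, 8 were called lower and 1 higher than WT in the knockout and in each rescue. Over all genes tested, 39.4% were called lower and 36.8% higher than WT in the knockout. These shares were 18.5% and 16.4% in KO+STAMBP, and 17.9% and 15.8% in the KO+CFLAR-labelled libraries. The neural progenitor markers summed to 3413 to 3445 CPM in the knockout libraries, against 7563 to 7653 CPM in WT. In the rescues they summed to 3960 to 3969 CPM (KO+STAMBP) and 4098 to 4159 CPM (KO+CFLAR-labelled libraries). The 2 highest by level differed: VIM averaged 2259 ± 12 CPM (SD, n = 4) in knockout and 2160 ± 104 CPM (SD, n = 2) in WT and was not called, while PTPRZ1 averaged 3.71 ± 0.70 CPM in knockout and 1882 ± 81 CPM in WT. Of 10 mesenchyme markers, 5 were called higher and 4 lower in the knockout than in WT, with a median log2 fold change of 0.31. The 2 highest by level, COL1A2 and COL1A1, averaged 1043 and 1030 CPM in knockout, against 66.2 and 6.64 CPM in WT. The choroid plexus markers had their highest sums in the rescues (460 to 472 CPM in KO+STAMBP, 398 to 415 CPM in the KO+CFLAR-labelled libraries and 93.5 to 94.4 CPM in WT). The labelled NPC type was therefore not seen alike in all groups. The part of these markers in the results below was not tested. In bulk RNA, a different number of cells of a type and a different amount of RNA per cell cannot be told apart.

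In the knockout against WT, 28 of the 32 members rose, 2 fell and 2 did not pass the test. Over all 21063 genes tested, 36.8% were called higher and 39.4% were called lower in that comparison. The members' median log2 fold change was 1.00, against a median of -0.04 over all genes tested. At least a 2-fold rise was seen in 16 members, 7 in each arm and 2 among the sensors. The share of all genes at this cut was not counted. Their upper quartile of log2 fold change was 0.78, less than a 2-fold rise. The call of each of the 32 members was shared by both lines: KO1 against WT gave 28 higher and 2 lower (over all genes, 35.6% higher and 37.3% lower), and KO2 against WT gave the same counts (35.8% higher and 37.3% lower). All tests were edgeR quasi-likelihood tests with Benjamini-Hochberg adjustment over all genes tested.

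**Figure D1:**
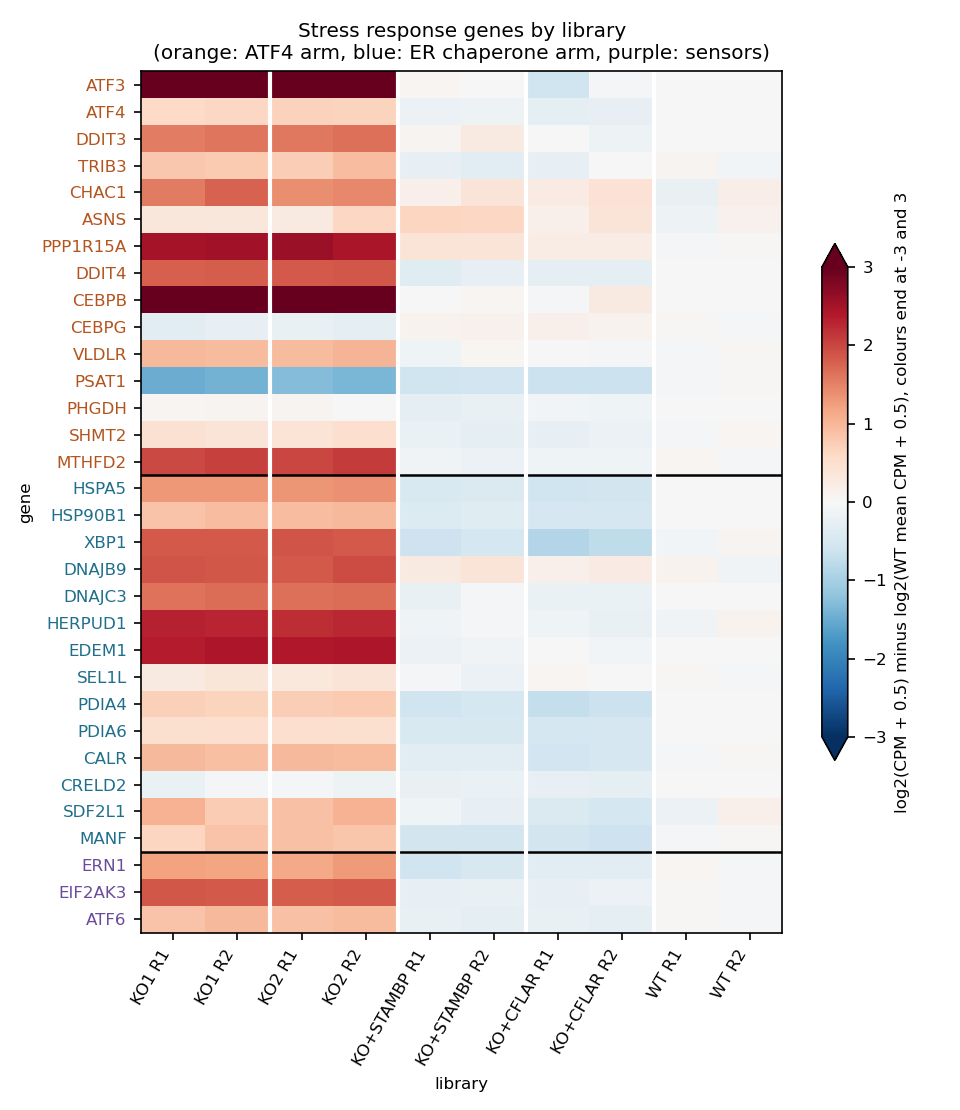
Level of each of the 32 genes (vertical axis) in each of the 10 libraries (horizontal axis), as the difference of log2(CPM + 0.5) from the WT mean. The 4 knockout libraries are red for nearly all genes of both arms, with PSAT1 blue, while the rescue libraries are close to white in the ATF4 arm and pale blue across many ER chaperone arm genes.

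The 2 arms rose by like medians and differed in their range, where 36.8% of all genes tested were called higher and 39.4% lower. In the ATF4 arm, 12 of 15 genes rose, 2 fell and 1 did not pass the test, with a median log2 fold change of 0.98 and a range of -1.41 to 5.90. In the ER chaperone arm, 13 of 14 rose, 0 fell and 1 did not pass the test, with a median of 0.98 and a range of -0.12 to 2.41. The summed level of the ATF4 arm was 1768 to 1812 CPM in the knockout libraries, against 923 to 952 CPM in WT. The summed level of the ER chaperone arm was 3976 to 4142 CPM in the knockout libraries, against 1935 to 1970 CPM in WT. No test was made of the difference between the arms, since genes of an arm are not replicates.

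Within the ATF4 arm, the 2 largest rises were those of the transcription factors ATF3 and CEBPB. ATF3, a stress-induced basic leucine zipper factor and target of ATF4 (ENSG00000162772, chromosome 1, 212565334 to 212620777, GRCh38), was at 286, 282, 277 and 282 CPM in the knockout libraries, against 4.71 and 4.69 CPM in WT. The groups lay far apart, at a log2 fold change of 5.90 ± 0.08 (SE; edgeR adjusted p = 6.3e-17). CEBPB, a C/EBP factor of stress and differentiation (ENSG00000172216, chromosome 20, 50190734 to 50192689), was at 97.0, 86.2, 95.8 and 93.5 CPM in the knockout libraries, against 3.26 and 3.23 CPM in WT, a log2 fold change of 4.84 ± 0.10. CEBPB shares exon bases with the antisense gene CEBPB-AS1, whose reads could not be separated. DDIT3, which encodes the pro-apoptotic factor CHOP, was at 17.7, 18.8, 18.3 and 19.4 CPM in the knockout libraries, against 5.76 and 5.82 CPM in WT (log2 fold change 1.68 ± 0.11). DDIT3 shares exon bases with the tRNA synthetase gene MARS1, whose reads could not be separated. MARS1 averaged 200 CPM in the knockout and 125 CPM in WT.

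The factor that names the arm moved less than these targets. ATF4 (ENSG00000128272, chromosome 22, 39519695 to 39522685) was at 340, 345, 360 and 353 CPM in the knockout libraries, against 220 and 226 CPM in WT, a log2 fold change of 0.65 ± 0.03 (edgeR adjusted p = 5.7e-11). CEBPG, a C/EBP partner of ATF4, went the other way: it was at 72.7, 78.2, 79.4 and 76.1 CPM in the knockout libraries, against 95.0 and 90.2 CPM in WT. That was a log2 fold change of -0.27 ± 0.04, with no overlap between the groups. The share of all genes tested that lacked such overlap was not counted.

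The feedback and effector genes of the ATF4 arm all rose. PPP1R15A, the stress-induced subunit that directs a phosphatase to eIF2 (ENSG00000087074, chromosome 19, 48872392 to 48876057), was at 206, 211, 221 and 202 CPM in the knockout libraries, against 35.6 and 37.1 CPM in WT, a log2 fold change of 2.53 ± 0.05. DDIT4, an inhibitor of mTORC1 signalling, was at 165, 166, 170 and 171 CPM in the knockout libraries, against 46.9 and 47.1 CPM in WT (1.84 ± 0.04 on the log2 scale). Both genes were tight within groups and far apart between them. CHAC1, an enzyme that degrades glutathione, was at 11.4 to 14.9 CPM in the knockout libraries, against 3.38 and 4.65 CPM in WT (1.64 ± 0.16 on the log2 scale). TRIB3, a pseudokinase induced by ATF4 and CHOP, was at 19.6 to 22.4 CPM in the knockout libraries, against 12.2 and 10.9 CPM in WT (0.85 ± 0.10). VLDLR, a lipoprotein and reelin receptor, was at 81.0 to 85.5 CPM in the knockout libraries, against 40.9 and 43.1 CPM in WT (0.98 ± 0.06).

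The 5 metabolic enzymes of the ATF4 arm did not move as a unit: 3 rose, 1 fell and 1 did not pass the test. MTHFD2, a mitochondrial folate enzyme, was at 145, 152, 148 and 156 CPM in the knockout libraries, against 38.1 and 34.7 CPM in WT, a log2 fold change of 2.05 ± 0.05. SHMT2, the mitochondrial serine hydroxymethyltransferase that feeds the same pathway, was at 87.4 to 93.8 CPM in the knockout libraries, against 63.2 and 69.5 CPM in WT (0.44 ± 0.05 on the log2 scale). Neither gene of serine synthesis in the list was called higher. PSAT1, the aminotransferase of serine synthesis (ENSG00000135069, chromosome 9, 78297143 to 78330093), was at 80.2, 84.6, 91.1 and 86.9 CPM in the knockout libraries, against 221 and 232 CPM in WT, a log2 fold change of -1.41 ± 0.04 (edgeR adjusted p = 6.9e-14). PHGDH, the enzyme before it in the pathway, was at 105 to 113 CPM in the knockout libraries, against 104 and 108 CPM in WT, and these groups overlapped (0.05 ± 0.04 on the log2 scale, edgeR adjusted p = 0.27).

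ASNS, asparagine synthetase, a much used reporter of ATF4 activity, rose by little. It was at 40.4, 40.4, 38.7 and 49.3 CPM in the knockout libraries, against 29.04 and 35.1 CPM in WT, a log2 fold change of 0.39 ± 0.10 (edgeR adjusted p = 0.0027). The second KO2 library stood above the other 3 knockout libraries. The call was lost without the first WT library (log2 fold change 0.25, edgeR adjusted p = 0.067) and with scaling by library size alone (0.21, adjusted p = 0.064).

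**Figure D2:**
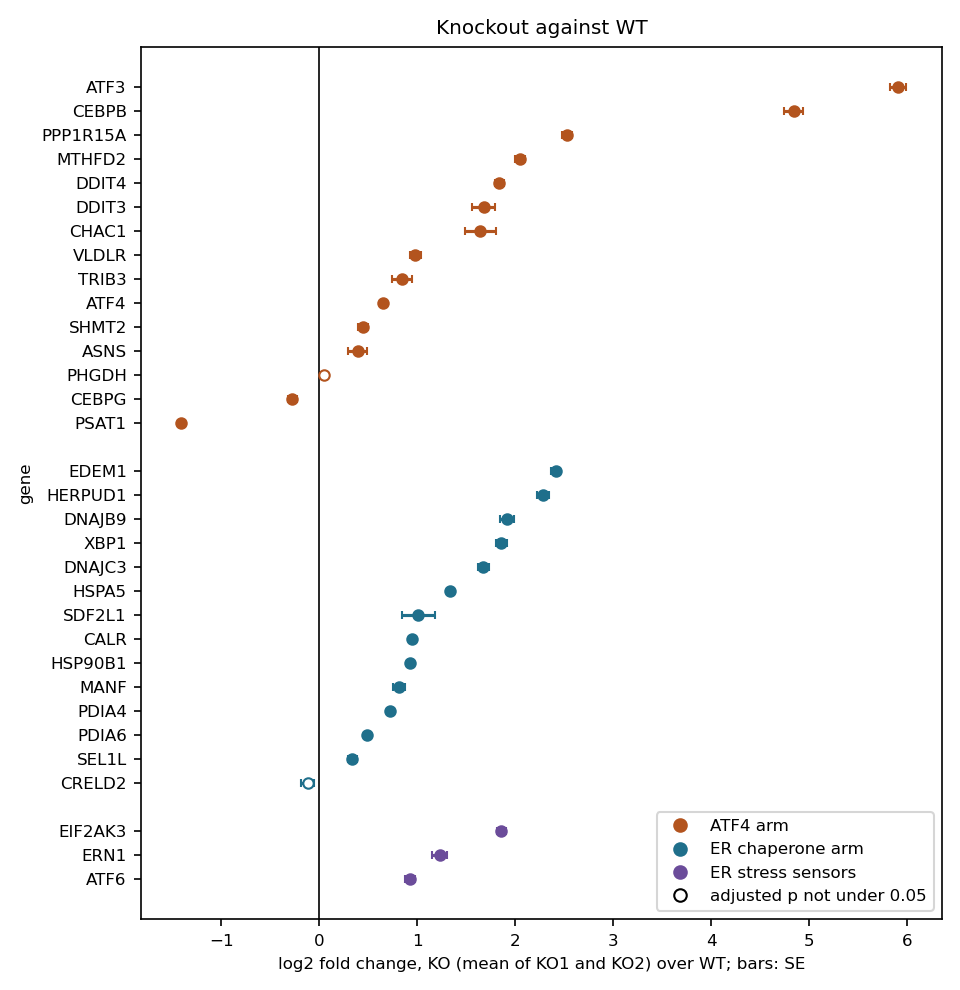
Log2 fold change of each of the 32 genes (vertical axis, ordered within arms) in the knockout over WT, with SE as bars; open points did not pass an adjusted p of 0.05. ATF4 arm genes run from -1.41 (PSAT1) to 5.90 (ATF3), while ER chaperone arm genes run from -0.12 (CRELD2) to 2.41 (EDEM1).

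In the ER chaperone arm, the 2 largest rises were those of EDEM1 and HERPUD1, genes of ER-associated degradation, by which misfolded protein leaves the ER. EDEM1, a lectin that passes misfolded glycoproteins to degradation (ENSG00000134109, chromosome 3, 5187646 to 5219957), was at 216, 229, 225 and 229 CPM in the knockout libraries, against 42.8 and 41.7 CPM in WT, a log2 fold change of 2.41 ± 0.05. HERPUD1, a membrane component of the degradation complex, was at 108, 105, 100.4 and 104 CPM in the knockout libraries, against 19.8 and 22.8 CPM in WT (2.29 ± 0.06 on the log2 scale). SEL1L, the scaffold of the same complex, moved far less: 145, 153, 148 and 155 CPM in the knockout libraries, against 122 and 116 CPM in WT (0.34 ± 0.05). DNAJB9 and DNAJC3, cochaperones of the ER chaperone BiP, rose by 1.92 ± 0.07 and 1.67 ± 0.05. DNAJB9 was at 81.2 to 88.0 CPM in the knockout libraries, against 24.2 and 20.6 CPM in WT. DNAJC3 was at 95.5 to 98.7 CPM in the knockout libraries, against 30.3 and 30.6 CPM in WT.

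The chaperones and folding enzymes HSPA5, HSP90B1, CALR, PDIA4 and PDIA6 all rose. HSPA5, which encodes BiP (ENSG00000044574, chromosome 9, 125234853 to 125241330), was at 882, 873, 897 and 927 CPM in the knockout libraries, against 355 and 356 CPM in WT, a log2 fold change of 1.33 ± 0.03 (edgeR adjusted p = 9.9e-15). HSP90B1, the ER member of the HSP90 family, was at 935 to 1011 CPM in the knockout libraries, against 515 and 518 CPM in WT (0.93 ± 0.03 on the log2 scale). CALR, the lectin chaperone calreticulin, was at 683 to 712 CPM in the knockout libraries, against 352 and 373 CPM in WT (0.95 ± 0.04). No knockout library overlapped WT in these 3 genes, in a comparison where 36.8% of all genes tested were called higher. How many of all genes lacked such overlap was not counted. The disulfide isomerases PDIA4 and PDIA6 rose by 0.73 ± 0.04 and 0.49 ± 0.03. PDIA4 was at 239 to 259 CPM in the knockout libraries, against 149 and 152 CPM in WT. PDIA6 was at 298 to 303 CPM in the knockout libraries, against 211 and 217 CPM in WT.

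XBP1, the transcription factor of the IRE1 branch (ENSG00000100219, chromosome 22, 28794555 to 28800597), was at 160.0, 160.4, 164 and 162 CPM in the knockout libraries, against 41.9 and 46.9 CPM in WT, a log2 fold change of 1.86 ± 0.05. MANF, a secreted and ER-held protein with neurotrophic activity, was at 63.5 to 74.6 CPM in the knockout libraries, against 39.2 and 41.4 CPM in WT (0.81 ± 0.06 on the log2 scale). SDF2L1, an ER-resident partner of BiP's cochaperones, was at 7.30 to 9.03 CPM in the knockout libraries, against 3.55 and 4.65 CPM in WT (1.01 ± 0.17). CRELD2, an ER protein induced by ER stress (ENSG00000184164, chromosome 22, 49918167 to 49927540), was the exception of the arm: it was at 25.05, 28.2, 27.6 and 26.0 CPM in the knockout libraries, against 28.98 and 28.9 CPM in WT. The knockout values were all below WT, but the log2 fold change of -0.12 ± 0.07 did not pass the test (edgeR adjusted p = 0.12). Without the second KO1 library it was called lower (-0.17, adjusted p = 0.039). Its promoter holds the same ER stress element as those of HSPA5 and XBP1.

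All 3 sensors rose. EIF2AK3, the kinase PERK, was at 127, 126, 124 and 126 CPM in the knockout libraries, against 35.4 and 34.0 CPM in WT (1.86 ± 0.04 on the log2 scale). ERN1, the endoribonuclease IRE1, was at 40.0, 39.2, 37.7 and 41.5 CPM in the knockout libraries, against 17.7 and 16.2 CPM in WT (1.23 ± 0.07). ATF6 was at 108, 118, 110 and 115 CPM in the knockout libraries, against 60.9 and 58.1 CPM in WT (0.93 ± 0.05). The knockout and WT libraries of all 3 sensors did not overlap, in a comparison where 36.8% of all genes tested were called higher. The share of all genes without such overlap was not counted.

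**Figure D3:**
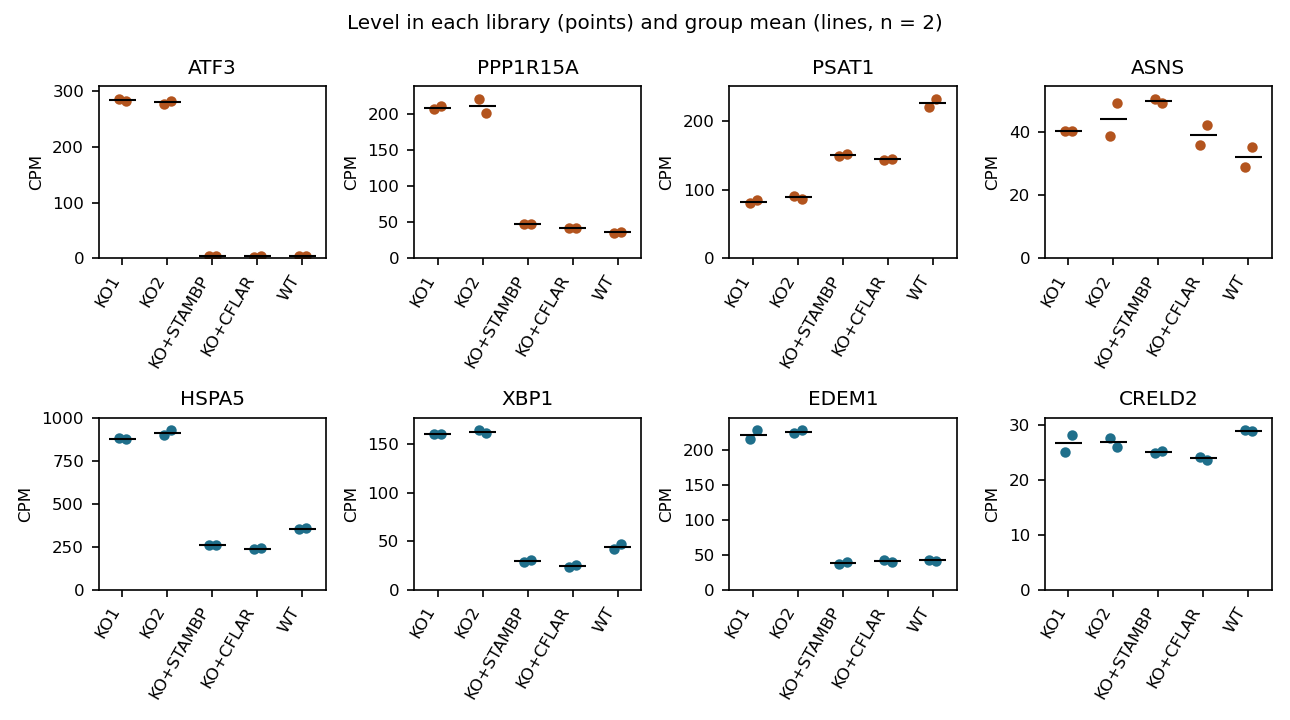
CPM of 8 genes (vertical axes, from 0) in each library, by group (horizontal axes); points are libraries and lines are group means of 2. PSAT1 is lowest in the knockout lines and highest in WT, and ASNS overlaps between KO1 and KO2. HSPA5 and XBP1 lie below WT in both rescues, while EDEM1 lies near WT and was not called in either rescue.

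Other genes of the 2 pathways, in 5 lists that exclude the members, were read in the same comparison. In it, 36.8% of all genes tested were called higher and 39.4% were called lower. Of 22 other ATF4 targets tested, 15 rose and 4 fell, with a median log2 fold change of 0.66. They included GDF15, a stress-induced secreted cytokine, at 43.3 to 49.3 CPM in the knockout libraries, against 0.233 and 0.244 CPM in WT. STC2, a secreted glycoprotein, was at 145 to 148 CPM in the knockout libraries, against 0.466 and 1.42 CPM in WT. The amino acid transporter genes SLC7A11 and SLC7A5 rose by 3.96 ± 0.06 and 3.23 ± 0.04 on the log2 scale. The transporter SLC1A4 and the enzymes GPT2, CBS and PYCR1 fell, by 2.81, 1.45, 1.10 and 0.47. The direction of PSAT1 was thus not alone among amino acid genes, and these 4 were named after their values were seen.

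Cytoplasmic aminoacyl-tRNA synthetases charge tRNAs and are classical ATF4 targets. They rose in 11 of 12 cases, with a median of 0.73, and LARS1 fell by 0.59. As above, 36.8% of all genes tested were called higher and 39.4% lower. WARS1, TARS1, GARS1 and YARS1 rose by 1.58, 1.10, 0.96 and 0.84. Of the 10 synthetase genes with a promoter in RefSeq, 7 held the C/EBP-ATF element. Of 31 other ER folding and degradation genes, 25 rose and 5 fell, with a median of 0.82. Their 4 largest changes at 2 CPM or more were those of KDELR3, a retrieval receptor, at 2.66 ± 0.14, the oxidase ERO1A at 2.10 ± 0.05, the BiP exchange factor SIL1 at 1.73 ± 0.09 and the isomerase PDIA5 at 1.70 ± 0.12.

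Of 16 genes for eIF2 kinases, the eIF2 phosphatase, eIF2 itself, its exchange factor, OMA1 and DELE1, 12 rose and 1 fell. The median was 0.37, the smallest of these 5 lists. Here too, the shares over all genes tested were 36.8% higher and 39.4% lower. EIF2S2 and EIF2S3, subunits of eIF2, rose by 1.03 and 0.85, and PPP1R15B, the constitutive counterpart of PPP1R15A, rose by 0.98. OMA1, a mitochondrial protease, was at 11.3 to 13.7 CPM in the knockout libraries, against 0.0582 and 2.25 CPM in WT, so its WT libraries differed widely from each other; it shares exon bases with DAB1 on the same strand. Of 9 genes for other ER stress sensors and proteases, TRAF2 and NFE2L2, 7 rose and 0 fell, with a median of 0.62. CREB3L2 and CREB3L1, membrane-bound factors cleaved like ATF6, rose by 3.67 ± 0.05 and 2.89 ± 0.08, CREB3 by 0.83 ± 0.06, and NFE2L2, the antioxidant factor NRF2, by 2.11 ± 0.04.

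**Figure D4:**
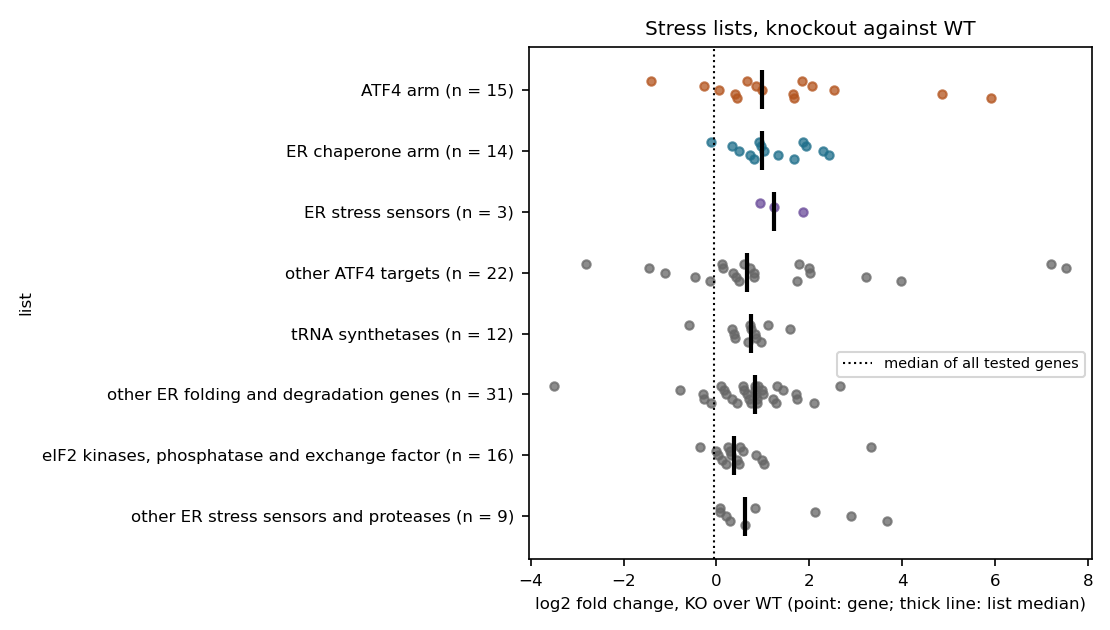
Log2 fold change of the knockout over WT (horizontal axis) for every gene tested in the 2 arms, the sensors and 5 further lists (vertical axis), with list medians as thick lines. All list medians lie between 0.37 and 1.23, right of the median of all genes tested at -0.04, and the 2 ATF4 lists reach farthest to the right.

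Most members were lower in the rescues than in the knockout. In KO+STAMBP against the knockout, 28 of 32 fell, 3 rose and 1 did not pass the test, where over all genes 37.8% were lower and 40.1% were higher. In the KO+CFLAR-labelled libraries against the knockout, 29 fell, 2 rose and 1 did not pass the test, where over all genes 38% were lower and 40% were higher. These comparisons and that of the knockout with WT share the knockout libraries, so their values are given side by side and no relation between them is drawn. The median log2 fold change of the ATF4 arm was -1.13 in KO+STAMBP and -1.01 in the KO+CFLAR-labelled libraries, each against the knockout. That of the ER chaperone arm was -1.34 in KO+STAMBP and -1.54 in the KO+CFLAR-labelled libraries.

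The largest falls were again those of stress factors. ATF3 was at 4.95 and 4.70 CPM in KO+STAMBP and 2.93 and 4.54 CPM in the KO+CFLAR-labelled libraries, against 277 to 286 CPM in the knockout libraries, which lies -5.87 ± 0.08 and -6.23 ± 0.08 away on the log2 scale. CEBPB was at 3.20 and 3.37 CPM in KO+STAMBP and 3.07 and 3.99 CPM in the KO+CFLAR-labelled libraries, against 86.2 to 97.0 CPM in the knockout libraries. The genes that rose against the knockout were PSAT1 and CEBPG in both rescues and ASNS in KO+STAMBP. PSAT1 was at 150 and 152 CPM in KO+STAMBP and 144 and 145 CPM in the KO+CFLAR-labelled libraries, against 80.2 to 91.1 CPM in the knockout libraries. ASNS was at 50.5 and 49.3 CPM in KO+STAMBP, against 38.7 to 49.3 CPM in the knockout libraries, and its rise of 0.24 ± 0.09 was lost in 6 of 20 alternative settings. CRELD2 fell in the KO+CFLAR-labelled libraries against the knockout (-0.16 ± 0.07), a call lost in 15 of 19 alternative settings.

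Against WT, the rescues had more genes called lower in the ER chaperone arm than in the ATF4 arm, a difference that was not tested. In KO+STAMBP, 8 of 14 ER chaperone arm genes and all 3 sensors were lower than in WT, as were 5 of 15 ATF4 arm genes, where over all genes tested 18.5% were lower and 16.4% were higher. In the KO+CFLAR-labelled libraries, 10 of 14 ER chaperone arm genes, all 3 sensors and 4 of 15 ATF4 arm genes were lower than in WT, where over all genes 17.9% were lower and 15.8% were higher. The median log2 fold change of the ER chaperone arm against WT was -0.28 in KO+STAMBP and -0.51 in the KO+CFLAR-labelled libraries. That of the ATF4 arm was -0.04 in KO+STAMBP and -0.11 in the KO+CFLAR-labelled libraries, and that of all genes tested was 0.01 in both. In the KO+CFLAR-labelled libraries, the lower ER chaperone arm genes numbered 7 with DESeq2 and 7 without the second KO+CFLAR-labelled or the second WT library. The summed level of the ER chaperone arm was 1503 to 1520 CPM in KO+STAMBP and 1395 to 1418 CPM in the KO+CFLAR-labelled libraries, against 1935 to 1970 CPM in WT. That of the ATF4 arm was 826 to 840 CPM in KO+STAMBP and 806 to 815 CPM in the KO+CFLAR-labelled libraries, against 923 to 952 CPM in WT.

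In the ER chaperone arm, the same 8 genes were lower than WT in both rescues: HSPA5, HSP90B1, XBP1, PDIA4, PDIA6, CALR, CRELD2 and MANF. HSPA5 was at 257 and 262 CPM in KO+STAMBP and 237 and 243 CPM in the KO+CFLAR-labelled libraries, against 355 and 356 CPM in WT, log2 fold changes of -0.45 ± 0.03 and -0.57 ± 0.03. XBP1 was at 28.5 and 30.8 CPM in KO+STAMBP and 23.8 and 25.8 CPM in the KO+CFLAR-labelled libraries, against 41.9 and 46.9 CPM in WT (-0.59 ± 0.07 and -0.84 ± 0.07). No rescue library reached WT in either gene, and the share of all genes with such a gap was not counted. PDIA4 was at 99.1 and 105 CPM in KO+STAMBP and 91.5 and 97.0 CPM in the KO+CFLAR-labelled libraries, against 149 and 152 CPM in WT. MANF was at 27.4 and 27.4 CPM in KO+STAMBP and 27.6 and 26.0 CPM in the KO+CFLAR-labelled libraries, against 39.2 and 41.4 CPM in WT. HSP90B1 lay -0.38 ± 0.04 from WT in KO+STAMBP and -0.51 ± 0.03 in the KO+CFLAR-labelled libraries, and PDIA6 lay -0.46 ± 0.04 and -0.52 ± 0.04 away.

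CALR was at 288 and 286 CPM in KO+STAMBP and 242 and 257 CPM in the KO+CFLAR-labelled libraries, against 352 and 373 CPM in WT. CRELD2 was at 24.9 and 25.2 CPM in KO+STAMBP and 24.2 and 23.6 CPM in the KO+CFLAR-labelled libraries, against 28.98 and 28.9 CPM in WT. Its call was lost in 14 of 18 alternative settings in KO+STAMBP, against 4 of 17 for the KO+CFLAR-labelled libraries. All 6 genes whose promoters hold the ER stress element are among these 8; the other 2 are PDIA4 and MANF. This overlap was noticed after the values were seen and was not tested.

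The degradation genes EDEM1, HERPUD1 and SEL1L did not pass the test against WT in either rescue. EDEM1 was at 37.2 and 39.4 CPM in KO+STAMBP and 42.1 and 40.0 CPM in the KO+CFLAR-labelled libraries, against 42.8 and 41.7 CPM in WT (log2 fold changes -0.14 ± 0.06 and -0.04 ± 0.06). HERPUD1 lay -0.09 ± 0.08 and -0.19 ± 0.08 from WT, and SEL1L -0.10 ± 0.05 and 0.02 ± 0.05. Without the first WT library, HERPUD1 was called lower in the KO+CFLAR-labelled libraries (-0.28, edgeR adjusted p = 0.029). DNAJB9 was higher than WT in KO+STAMBP, at 26.9 and 29.2 CPM, against 24.2 and 20.6 CPM in WT (0.33 ± 0.09, edgeR adjusted p = 0.0075). This call was lost without the second KO+STAMBP library (0.27) and without the second WT library (0.22). In the KO+CFLAR-labelled libraries, DNAJB9 was at 25.01 and 26.4 CPM and did not pass the test (0.21 ± 0.09, adjusted p = 0.078), though it was called without the first WT library (0.32, adjusted p = 0.025). DNAJC3 and SDF2L1 were called lower than WT in the KO+CFLAR-labelled libraries (-0.20 ± 0.07 and -0.57 ± 0.20), and these calls were lost in 7 and 12 of 17 alternative settings.

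In the ATF4 arm, ATF4, DDIT4, PSAT1 and SHMT2 were lower than WT in both rescues and PPP1R15A was higher in both. ATF4 was at 198 and 199.7 CPM in KO+STAMBP and 185 and 187 CPM in the KO+CFLAR-labelled libraries, against 220 and 226 CPM in WT (-0.16 ± 0.04 and -0.26 ± 0.04 on the log2 scale). PSAT1 stayed between knockout and WT, at -0.59 ± 0.04 in KO+STAMBP and -0.65 ± 0.04 in the KO+CFLAR-labelled libraries against WT. PPP1R15A was at 47.4 and 47.8 CPM in KO+STAMBP and 42.7 and 42.5 CPM in the KO+CFLAR-labelled libraries, against 35.6 and 37.1 CPM in WT (0.39 ± 0.06 and 0.23 ± 0.06). The call of PPP1R15A in the KO+CFLAR-labelled libraries was lost without the first WT library (0.19). Those of SHMT2 were lost without the second WT library (-0.16 and -0.15), and also without the second KO+STAMBP library (-0.20) and the first KO+CFLAR-labelled library (-0.19). PHGDH was lower than WT in KO+STAMBP only by call (-0.26 ± 0.05, edgeR adjusted p = 0.00051; -0.11 ± 0.05, adjusted p = 0.086, in the KO+CFLAR-labelled libraries).

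ASNS was higher than WT in KO+STAMBP (0.63 ± 0.11, edgeR adjusted p = 0.00046). In the KO+CFLAR-labelled libraries it was at 35.8 and 42.3 CPM, against 29.04 and 35.1 CPM in WT, and did not pass the test (0.28 ± 0.11), though 7 of 17 alternative settings called it. CEBPG was called higher than WT in the KO+CFLAR-labelled libraries (0.14 ± 0.05), a call lost in 10 of 17 alternative settings. ATF3, DDIT3, TRIB3, CHAC1, CEBPB, VLDLR and MTHFD2 did not pass the test against WT in either rescue. These 7 hold the 2 members that rose most in the knockout, and their log2 fold changes against WT lay between -0.33 (ATF3, KO+CFLAR-labelled libraries) and 0.37 ± 0.18 (CHAC1, the same libraries). Without the second KO+CFLAR-labelled library, ATF3 lay at -0.68 and was called lower than WT (edgeR adjusted p = 0.0052).

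Among the sensors, ERN1 was at 11.1 and 11.9 CPM in KO+STAMBP and 13.3 and 13.6 CPM in the KO+CFLAR-labelled libraries, against 17.7 and 16.2 CPM in WT (-0.56 ± 0.09 and -0.33 ± 0.09 on the log2 scale). EIF2AK3 lay -0.24 ± 0.06 and -0.22 ± 0.06 from WT and ATF6 lay -0.26 ± 0.06 and -0.24 ± 0.06. In the KO+CFLAR-labelled libraries, the ERN1 and EIF2AK3 calls were each lost in 3 of 17 alternative settings.

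**Figure D5:**
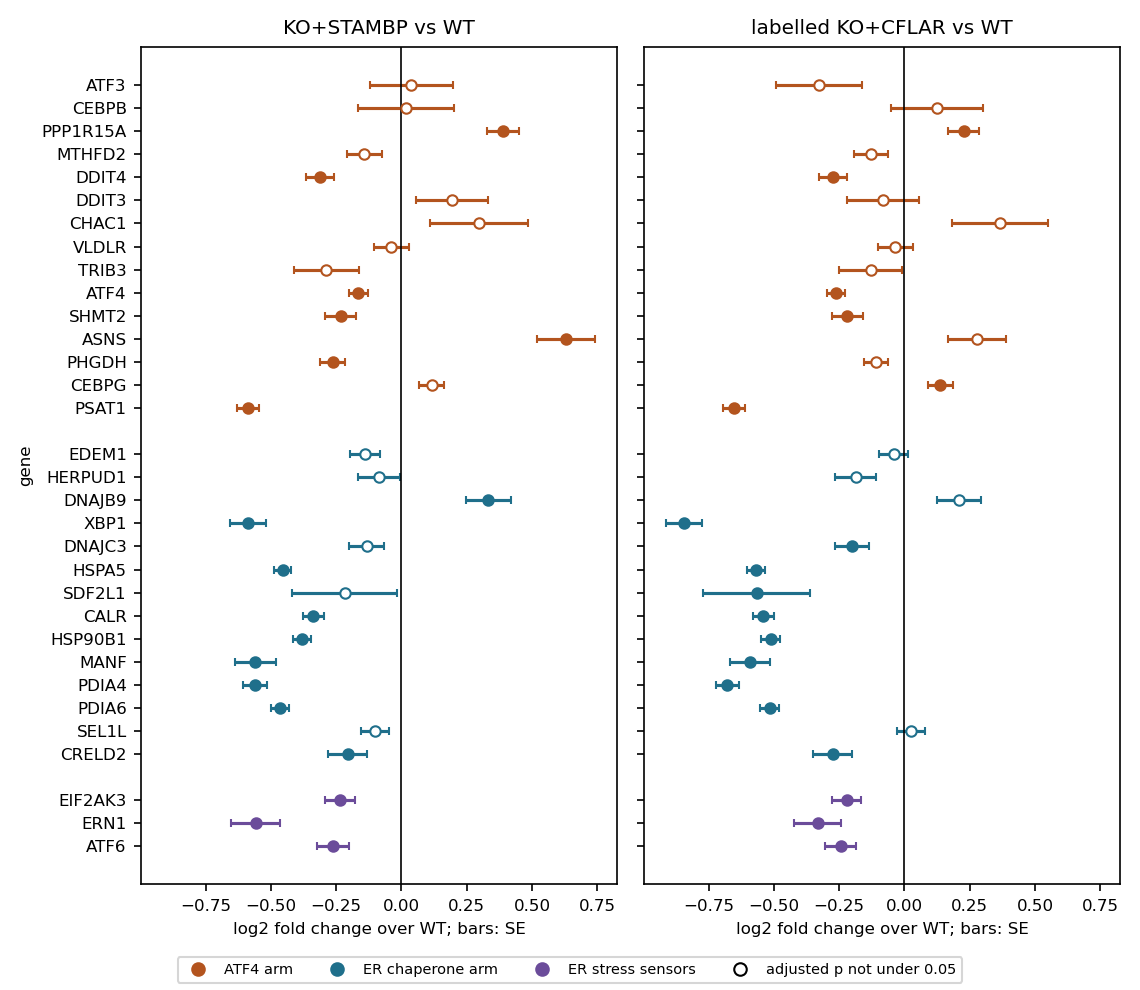
Log2 fold change over WT (horizontal axes) of the 32 genes (vertical axis) in KO+STAMBP and in the KO+CFLAR-labelled libraries, with SE as bars; open points did not pass an adjusted p of 0.05. Filled points left of 0 are 8 ER chaperone arm genes in KO+STAMBP, 10 in the KO+CFLAR-labelled libraries, and 3 sensors in both panels. In the ATF4 arm they are 5 genes in KO+STAMBP and 4 in the KO+CFLAR-labelled libraries. Most of the strongly induced ATF4 arm genes are open points near 0.

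No member was called between the 2 knockout lines. KO1 against KO2 gave 0 members called by edgeR, where over all genes 0.133% were higher and 0.0237% were lower. DESeq2 also called 0. An unadjusted edgeR p under 0.05 was seen for 1 member, PSAT1, and for 1196 of all 21063 genes tested. The members' log2 fold changes between the lines ran from -0.13 to 0.26. Between the rescues, the KO+CFLAR-labelled libraries against KO+STAMBP gave 0 higher members and 1 lower, where over all genes 0.627% were higher and 0.461% were lower. The 1 lower member was CALR (-0.20 ± 0.04, edgeR adjusted p = 0.030), whose call was lost in 5 of 17 alternative settings. At an unadjusted p under 0.05, 12 members differed between the rescues.

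Without the KO+CFLAR-labelled libraries, the knockout against WT again gave 28 higher and 2 lower members, KO+STAMBP against the knockout gave 3 higher and 28 lower, and KO+STAMBP against WT gave 3 higher and 15 lower. Of the 32 members, 14 share exon bases with another annotated gene in GENCODE release 29, mostly on the opposite strand. Examples are DDIT3 with MARS1 and MBD6, and DNAJB9 with THAP5. DDIT3 also shares exon bases with AC022506.1 on the same strand. Without a stated strand setting, reads of such pairs could not be separated.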

How the data were processed

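For 10 libraries, unnormalized whole-number counts of reads in each gene were deposited by the authors. Per the labels' protocols, 1 µg of Trizol-extracted RNA entered Illumina TruSeq preparation. Tools and builds named without roles in the submitters' processing notes are RSEM 1.2.4, fastp 0.20.0, DESeq2, GRCh38 and hg38. The annotation release and strand setting are not given in the sources used here. From the counts, edgeR 4.0.16 (R 4.3.3) quasi-likelihood models were fitted with TMM scaling and 5 group means over all 10 libraries (5 residual degrees of freedom) to the 21063 genes that filterByExpr kept. A call is an adjusted p (Benjamini-Hochberg) under 0.05. SE is the log2 fold change divided by the root of F. CPM values use TMM factors. In KO, KO1 and KO2 had equal weight. Between the 2 libraries of each group, chi-square per gene was 1.95 to 3.59, so neither was a copy of the other. Libraries of different groups were not compared in this way. The fit was tested on simulated data. Alternatives were DESeq2 1.42.0, other scalings and filters, a replicate block, subsets of groups and each library left out. Replicate numbers did not pair samples across groups (r from -0.02 to 0.07 over 10 group pairs). The members and lists were chosen with earlier results of these data known. All 32 members were named, and from each other list the 4 largest called changes in KO against WT with a mean of at least 2 CPM; others are marked as named after their values were seen. Gene positions are those of GENCODE release 29 (GRCh38).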

Additional observations from a re-analysis of the deposited data

Results flagged for a closer look

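ASNS in the knockout was the only member with a library far from the others of its group. The second KO2 library had 49.3 CPM, against 38.7 to 40.4 CPM in the other 3 knockout libraries. The gap to its nearest neighbour was 0.837 of the range of the 4 knockout libraries, above Dixon's critical value. Chance alone gives such a gap in about 1 in 20 groups, and 32 members were examined. The rise of ASNS in the knockout against WT was lost in 2 of 20 alternative settings.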

How the results depend on the processing

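Scaling by library size alone moved the median log2 fold change of all genes to -0.22 in KO against WT, 0.25 in KO+STAMBP against KO and 0.24 in the KO+CFLAR-labelled libraries against KO. Under it, PHGDH changed sign in KO against WT (-0.13), in KO2 against WT (-0.16) and in KO+CFLAR against KO (0.040), as did CRELD2 in KO+CFLAR against KO (0.043), and 4 members were lower in KO and in KO2 against WT. These values moved with the shift of all genes. Over all alternatives, 5162 member results kept direction and call, 92 lost and 22 gained a call, and 4 reversed. In KO+CFLAR against WT, DESeq2 called 1 member higher and 12 lower, and leaving out each library in turn gave 1 to 2 higher and 12 to 17 lower, against 2 and 17. Between KO1 and KO2, no filter on low counts gave 251 genes and leaving out libraries 20 to 58, against 33. Between the rescues, no filter gave 780 genes and leaving out libraries 27 to 313, against 229; members lower were 2 with DESeq2, 3 with no filter, 2 with only the groups compared and 0 to 2 leaving out libraries, against 1. The replicate block gave 16036 genes in KO against WT, against 16055, and 301 between the rescues. Other causes were not tested. With 2 libraries a group, small changes such as those of ASNS and CRELD2 are at the limit of what can be called. So is the larger fall of SDF2L1 in KO+CFLAR against WT, where the gene was at 2.89 and 2.68 CPM in KO+CFLAR.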

Other observations

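The further stress lists were also set against WT in the rescues. Over all genes tested, 18.5% were lower and 16.4% higher than WT in KO+STAMBP, and 17.9% were lower and 15.8% higher in the libraries labelled KO+CFLAR. Of 31 other ER folding and degradation genes, 10 were lower and 1 was higher in KO+STAMBP, and 12 were lower and 0 were higher in the libraries labelled KO+CFLAR, with median log2 fold changes of -0.11 and -0.15 (edgeR quasi-likelihood test). Of 22 other ATF4 targets, 5 were lower and 4 were higher in KO+STAMBP, and 7 were lower and 3 were higher in the libraries labelled KO+CFLAR. Of 12 tRNA synthetases, 1 was lower and 1 was higher in KO+STAMBP, and 2 were lower and 2 were higher in the libraries labelled KO+CFLAR. The shares of ATF4 targets lower and higher in KO+STAMBP, and higher in the libraries labelled KO+CFLAR, are near those of all genes.

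In the list of other ER folding genes, CANX, ERO1B and SERP1 held the ER stress element and HYOU1 held the ER stress element II; these 4 were named after their values were seen. CANX, the membrane-bound lectin chaperone calnexin, was at 566 and 575 CPM in KO+STAMBP and 551 and 535 CPM in the libraries labelled KO+CFLAR, against 855 and 843 CPM in WT (log2 fold changes -0.57 ± 0.03 and -0.64 ± 0.03). HYOU1, an ER chaperone of the HSP70 family, lay -0.46 ± 0.04 and -0.51 ± 0.04 from WT. ERO1B, an ER oxidase, and SERP1, a protein that stabilises membrane proteins, did not pass the test in either rescue. In the knockout against WT, HYOU1 and SERP1 rose by 0.57 ± 0.03 and 0.89 ± 0.05, while CANX and ERO1B fell by 0.11 ± 0.03 and 0.78 ± 0.10.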
